A study of Mus musculus with 13 samples.

Results

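Microglia sorted from mouse brain were profiled by ATAC-seq, an assay in which a transposase cuts and tags accessible DNA. Described here are 280 peaks that were less accessible in every group given lipopolysaccharide (LPS) shortly before collection than in its control group. They were chosen from the counts themselves. Counts were scaled to CPM, counts at a common library total, and averaged within a group. A peak was kept when log2(mean CPM + 1) was lower by 0.4 or more in each of 4 comparisons, PL with PP, PBL with PBP, LL with PP and LBL with PBP. Only autosomal peaks with a mean count of 20 or more over the 13 libraries could enter, which 25307 of the 38620 peaks did. A further 5 peaks on X or Y met the same limits and were left out, and 1501 autosomal peaks met the mirror limit of 0.4 or more higher in all 4 comparisons.

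The animals were male C57BL/6J mice, injected intraperitoneally at 10 weeks with either Escherichia coli O111:B4 LPS at 1 mg/kg or phosphate-buffered saline (PBS). From 1 week later they were gavaged for 5 days with BLZ945 at 169 mg/kg per day or with its cyclodextrin vehicle. BLZ945 inhibits CSF1R, whose signal microglia need to survive, so brains given it were emptied and then repopulated before the second injection, 5 weeks after the first. Brains were taken 3 h after the second injection, at 15 weeks. PP received PBS, vehicle and PBS. PBP received PBS, BLZ945 and PBS. PL received PBS, vehicle and LPS, and PBL the same with BLZ945. LL received LPS, vehicle and LPS, and LBL the same with BLZ945. None of these libraries came from mice given LPS first and PBS second. Every library pooled 2 mice at 40000 cells a mouse. PBL had 3 libraries and every other group 2. Cells had been gated as CD11b high, CD45 intermediate and Ly6c negative. Since 4 appears in the names of both PBL 3_4 and PBL 4_5, these pools may not be independent, and the labels do not settle it.

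LPS is sensed by TLR4 and drives NF-kB and interferon programmes in microglia, the resident macrophages of the brain. At rest these cells keep a set of identity genes active, among them surface receptors that survey the tissue and receptors for dying cells, under transcription factors such as PU.1, SALL1 and SMAD proteins downstream of TGF-beta. In acute inflammation many of these identity genes are known to be turned down while cytokine genes are turned up. An ATAC-seq peak marks a stretch of accessible DNA, usually a promoter or an enhancer, and a peak that loses signal is called closed by convention. In bulk libraries a lower count at a peak can come from fewer cells with the site open or from less opening per cell, and these cannot be told apart.

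Promoter sequence could be read for part of the peaks only, since sequence was at hand for RefSeq promoter windows of 300 bases (GRCm38.p6). Of the 280 peaks, 49 overlapped such a window, and 44 did so over 150 bases or more. The stretches below are the parts of a window before the start site that lie inside the peak, on the strand of the gene. The first 3 are those with the largest loss, by the weakest of the 4 differences, among the peaks whose window holds CAGACA, a SMAD-type element that was searched on both strands and is in capitals. The other three belong to the microglial genes Mertk, Olfml3 and Zfhx3 and hold no copy in the stretch shown.
Thrsp, chr7:97417551-97417800, minus strand: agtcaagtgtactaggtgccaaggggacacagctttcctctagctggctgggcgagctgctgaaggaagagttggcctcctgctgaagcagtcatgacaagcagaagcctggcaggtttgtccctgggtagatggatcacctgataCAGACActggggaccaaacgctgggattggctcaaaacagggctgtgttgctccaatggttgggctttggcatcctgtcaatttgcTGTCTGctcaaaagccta
Kcnj16, chr11:110997237-110997486, plus strand: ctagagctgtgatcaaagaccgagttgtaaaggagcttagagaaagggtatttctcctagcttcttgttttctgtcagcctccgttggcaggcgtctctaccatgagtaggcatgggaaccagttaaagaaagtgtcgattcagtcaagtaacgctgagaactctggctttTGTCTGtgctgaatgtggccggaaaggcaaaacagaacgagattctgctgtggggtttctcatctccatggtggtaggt
Fam219b, chr9:57537278-57537527, plus strand: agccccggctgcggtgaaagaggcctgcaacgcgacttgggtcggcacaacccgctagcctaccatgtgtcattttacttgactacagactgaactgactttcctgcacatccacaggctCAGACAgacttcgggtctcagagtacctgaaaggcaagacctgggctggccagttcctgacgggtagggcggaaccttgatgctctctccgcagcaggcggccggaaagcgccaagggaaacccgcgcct
Mertk, chr2:128698665-128698914, plus strand: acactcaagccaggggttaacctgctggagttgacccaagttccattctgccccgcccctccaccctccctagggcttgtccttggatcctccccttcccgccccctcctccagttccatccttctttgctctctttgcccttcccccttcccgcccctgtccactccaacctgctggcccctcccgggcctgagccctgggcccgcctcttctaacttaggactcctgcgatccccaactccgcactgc
Olfml3, chr3:103738002-103738084, minus strand: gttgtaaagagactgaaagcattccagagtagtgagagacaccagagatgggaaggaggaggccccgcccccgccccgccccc
Zfhx3, chr8:108714394-108714643, plus strand: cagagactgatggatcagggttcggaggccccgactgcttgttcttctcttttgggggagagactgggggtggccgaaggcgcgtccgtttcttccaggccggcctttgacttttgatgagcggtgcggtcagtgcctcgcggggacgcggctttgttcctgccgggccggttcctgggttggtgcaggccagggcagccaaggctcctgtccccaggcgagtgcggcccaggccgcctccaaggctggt
CAGACA was found in 13 of the 44 windows (29.5%) and in 14.9% of the 7794 windows that lay in any autosomal peak of the same count. The ETS core GGAAGT, the family element that PU.1 shares, was in 7 of 44 windows (15.9%) against 31.1% of all. The NFY element CCAAT was in 27.3% against 39.9%, and the KLF and SP element GGGCGG in 61.4% against 69.4%. The CTCF letters CCANNAGGG were in 0 of 44 windows against 6.45% of all. The AP-1 letters TGANTCA were in 4.55% and 4.4%. The other SMAD letters, GTCTAGAC, were in 0 of 44 windows against 0.231% of all. CAGACA was not the only motif above its share in all windows. CAGCTG was in 20.5% against 14.4%, AGGTCA in 15.9% against 11.2% and the C/EBP letters TTGCNNAA in 11.4% against 7.81%. Others, such as the ETS core, were below it. CAGACA is not to be read as chosen before these shares were known. Median GC content was 63.5% in the 44 windows and 62.0% in all, but 11 of the 44 (25.0%) had fewer than 10 CpG dinucleotides against 10.8% of all. These are shares of letter matches in 24 searches with no test, and a match is not a binding site.

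Some of the peaks lay nearest to microRNA genes, short regulatory RNAs that pair with messages through the seed, bases 2 to 8, given in capitals. The matures from RefSeq are shown for the 3 microRNA genes whose peaks are described below.
mmu-miR-146a-5p: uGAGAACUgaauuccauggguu
mmu-let-7i-5p: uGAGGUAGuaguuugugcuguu
mmu-miR-181a-5p: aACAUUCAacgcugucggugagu
The 3 seeds differ, so the 3 microRNAs belong to different seed families. miR-146a is known as an LPS-induced brake on TLR signalling.

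Libraries held between 927840 and 2772688 counts in peaks, and the PP libraries were the shallowest. PL 3_4 stood apart, with 53.2% of its counts in promoter peaks against 55.5% to 60.1% in the other libraries. An Astrios sorter was used for PP, PBP and PL and an XDP for the other groups, so that only PL against PP kept to 1 sorter among the 4 LPS comparisons. A deposited column of isolation dates puts PP with PL 3_4, and PBP with PL 1_2, on shared days, while the PBL, LL and LBL libraries were each made on a single date used for no other group. There the date cannot be told apart from the group. PP and PBP were likewise on different dates. Promoter peaks were present for 10 of 11 microglial markers, with a summed level of 487 to 689 CPM, highest in PBP and lowest in PBL by group mean. None of 5 neutrophil, 5 neuronal and 3 endothelial markers had a promoter peak. Of 5 lymphocyte markers, 1 had a peak, at 10.3 to 19.3 CPM with the highest group mean in PL, and 2 of 4 oligodendrocyte markers had one, at 19.4 to 33.0 CPM. Of 4 astrocyte markers 1 had a peak, at 4.01 to 13.6 CPM, with group means of 11.2 CPM in PP, 12.9 in PBP, 10.2 in PL, 11.0 in PBL, 5.6 in LL and 6.97 in LBL. Their part in the results was not tested.

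The 280 peaks had a median level of 25.9 CPM in PBS libraries, close to the 26.2 CPM of all 25307. They took 0.941% and 0.909% of all counts in the PP libraries and 0.852% and 0.904% in the PBP libraries. After LPS they took 0.576% and 0.502% in PL, 0.535%, 0.514% and 0.507% in PBL, 0.573% and 0.568% in LL, and 0.545% and 0.551% in LBL. All 4 PBS libraries were thus above all 9 LPS libraries, which the choice of peaks brings with it. The median difference in log2(CPM + 1) was -0.70 for PL, -0.67 for PBL, -0.63 for LL and -0.62 for LBL, while the median over all 25307 peaks was between -0.02 and 0.01. Of the PL libraries, PL 3_4 shared its day with PP and gave a median of -0.82, and PL 1_2, from another day, gave -0.63. All 280 peaks were lower than the PP mean in each. These 4 comparisons chose the peaks and share their controls, so their values are a description and carry no test.

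**Figure D1:**
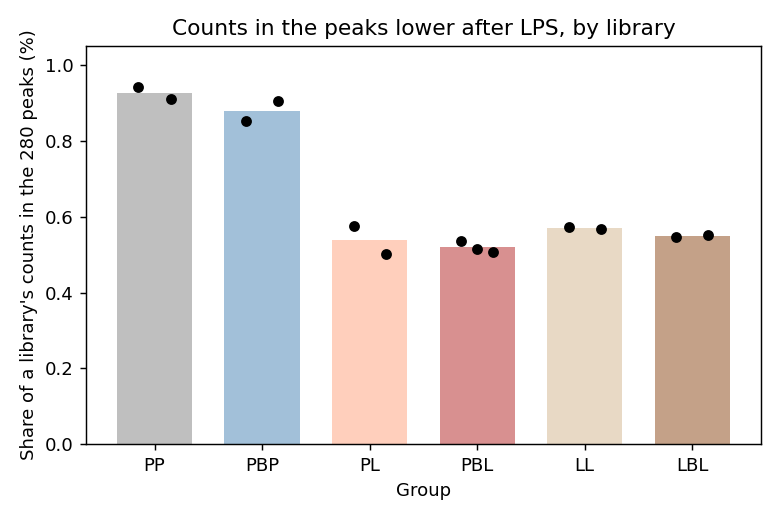
Share of each library's counts that fell in the 280 peaks, in percent, by group; bars are group means and points are libraries (3 for PBL, 2 for each other group). The 4 PBS libraries sit between 0.852% and 0.941% and the 9 LPS libraries between 0.502% and 0.576%.

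The 4 PBS libraries did not overlap the 9 LPS libraries in CPM at 183 of the 280 peaks (65.4%), against 2.32% of the 25307 peaks. At the remaining 97 peaks at least 1 LPS library reached into the PBS range. In edgeR's quasi-likelihood fit, at a Benjamini-Hochberg adjusted p under 0.05, 92 of the 280 were called lower in PL against PP, where 2.69% of all 37516 tested peaks were. The count was 146 in PBL against PBP (3.23% of all peaks), 54 in LL against PP (2.0%) and 73 in LBL against PBP (0.88%). None of the 280 was called higher in these 4 comparisons, where 4.77%, 6.74%, 4.13% and 3.94% of all peaks were. The rule fixed both the direction and a least size of these differences, in the same libraries. The counts and the 65.4% are therefore a description and carry no test. They cannot show a separation beyond what the choice of peaks brings with it.

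**Figure D2:**
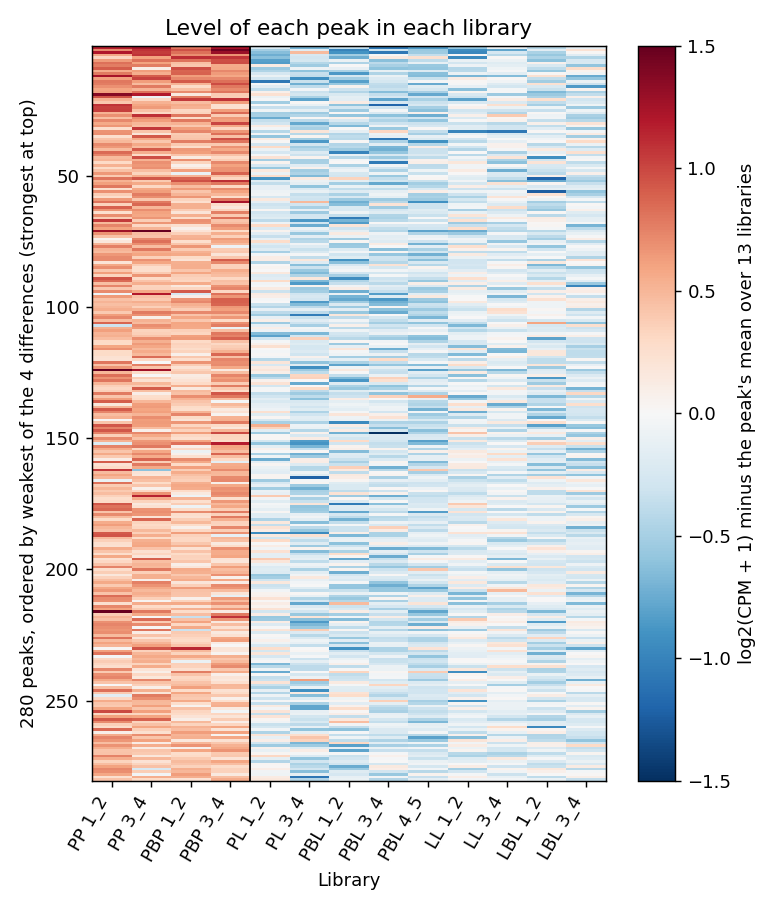
Each row is 1 of the 280 peaks and each column 1 of the 13 libraries; colour is log2(CPM + 1) minus that peak's mean over the libraries, and the black line parts the 4 PBS libraries on the left from the 9 LPS libraries. Red lies left and blue right of the line, and single LPS libraries return to or above the row mean at some peaks.

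The weakest of the 4 differences had a median of -0.49 and reached -1.30. It was between -0.40 and -0.45 for 92 peaks, and a further 166 peaks missed the limit with a weakest difference between -0.35 and -0.40, so the limit cuts through a continuum. Just inside stood an intronic peak of Fgd2, an exchange factor for CDC42, and a promoter peak of Eef2k, the kinase that slows translation elongation, with -0.4006 and -0.4009. Just outside were a 3' UTR peak of Mpeg1, the macrophage pore-forming protein perforin-2, at -0.3999, and a promoter peak of Btbd3 at -0.3996.

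The difference was next read in a library that had played no part in choosing. When each library was left out in turn, between 259 and 383 peaks met the limits in the other 12. Their median difference in the library left out ran from -0.449 (PBP 1_2) to -0.782 (PL 3_4), against medians between -0.03 and 0.02 over all peaks. Between 89.0% and 99.6% of the peaks so chosen lay below 0 in that library, against 48.4% to 53.5% of all peaks. The lowest shares came when a PBS library was left out. Fewer reached -0.4 in the library left out, 55.1% to 66.6% for PBS libraries and 68.7% to 83.8% for LPS libraries. Over all peaks 8.64% to 23.4% did. The controls or treated partners of the same group still served in the choice, so these are descriptions. Of the 280, 46 peaks (16.4%) met the limits without each of the 13 libraries in turn.

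By position, 97 of the 280 peaks (34.6%) were promoter peaks, within 1 kb of a start site, against 46.6% of all autosomal peaks of the same count. Introns held 80, distal intergenic DNA 71, other exons 19, 3' UTRs 11 and 5' UTRs 2. The 1501 peaks that were higher after LPS had 10.7% in promoters and 46.3% in introns. Among the 280, promoter peaks had medians of 29.3 CPM in PBS and 18.2 CPM in LPS libraries, and intronic peaks 23.7 and 13.1 CPM. Chromosome 11 carried 40 of the 280 (14.3%), although 7.22% of all the peaks lie there. The 280 peaks had a median width of 512 bp against 563 bp.

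**Figure D3:**
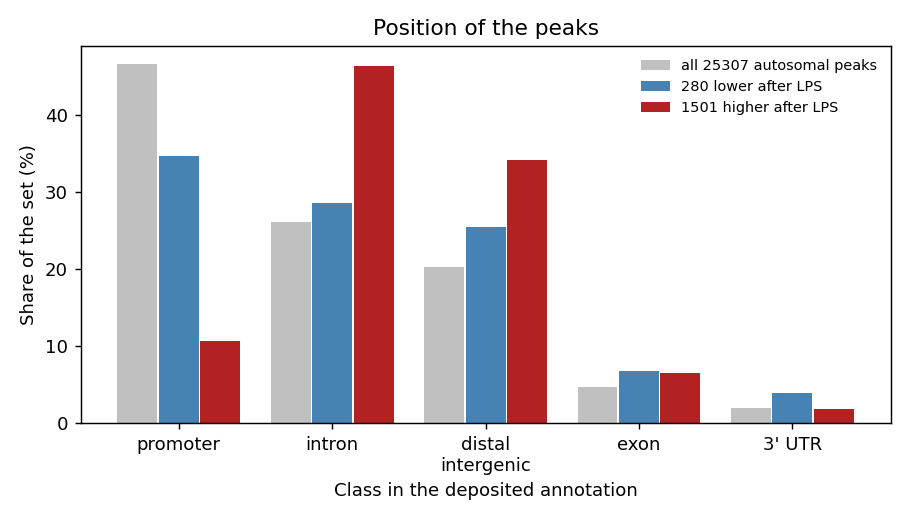
Share in percent of all 25307 autosomal peaks (grey), of the 280 peaks lower after LPS (blue) and of the 1501 peaks higher after LPS (red) by class in the deposited annotation. Promoters make up 46.6%, 34.6% and 10.7% of the 3 sets.

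Ranked by the weakest of its 4 differences, the peak with the largest loss was at Siglech, a sialic-acid-binding receptor used as a microglial marker. The peak lies in intergenic DNA 22969 bp from the start site (GRCm38, chromosome 7, 55744255 to 55745209). It measured 46.9 and 49.0 CPM in PP and 36.0 and 49.0 CPM in PBP, then 17.1 and 12.1 CPM in PL and 15.6, 9.09 and 10.8 CPM in PBL. In LL it measured 13.2 and 19.0 CPM and in LBL 14.9 and 18.4 CPM. The lowest PBS library was thus well above the highest LPS library, and the 4 differences ran from -1.30 to -1.76.

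The Siglech promoter itself is another peak and was not among the 280. It measured 26.9 and 38.9 CPM in PP and 25.4 and 36.8 CPM in PL, which overlap. In PBP it measured 41.1 and 52.4 CPM and in PBL 17.0, 22.0 and 23.3 CPM. It fell in PBL against PBP, by a log2 fold change of -1.11 (SE 0.197, edgeR adjusted p = 8.3e-06), whereas PL against PP gave -0.05 (SE 0.248, adjusted p = 0.935). The difference between these responses was -1.06 (SE 0.314) and did not pass the test (edgeR adjusted p = 0.139). PBL and PBP were sorted on different instruments and days, while PL and PP shared the sorter, so sorter and BLZ945 cannot be told apart here. The promoter gave 0.229 in LL against PP (SE 0.232, edgeR adjusted p = 0.628) and -0.565 in LBL against PBP (SE 0.208, adjusted p = 0.1), neither past the threshold.

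Other losses among the 12 strongest by this rank lay near genes of varied function. An intronic peak of Cotl1, which encodes an actin-binding protein, measured 24.2 and 34.8 CPM in PP, 26.3 and 25.8 CPM in PBP and 9.16 to 15.9 CPM over the 9 LPS libraries. A peak 23505 bp from Ctla4, a T-cell inhibitory receptor gene that is only the nearest start site here, measured 25.9 to 32.7 CPM in the PBS libraries and 8.86 to 15.2 CPM in the LPS libraries. Neither peak overlapped between the PBS and LPS libraries. A 3' UTR peak assigned to the zinc transporter gene Slc30a4 measured 26.2 to 42.0 CPM in the PBS libraries and 9.82 to 20.4 CPM in the LPS libraries. Peaks near D7Ertd443e and in an intron of Naaladl2 (named by its position, chr3:25053019, as its start site is 90661 bp away) ran from 19.4 to 33.0 and from 20.6 to 28.9 CPM in PBS libraries. In the LPS libraries they ran from 5.19 to 13.3 and from 4.77 to 15.9 CPM. The uncharacterised loci 2610307P16Rik, Gm16287 and Gm11747 and 1 gene-distant peak (chr18:85697894) were also in this set, and of these only Gm11747 overlapped between PBS and LPS libraries.

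Ranked by the weakest of the 4 differences, the promoter peaks with the largest losses were at BC147527 and Thrsp. Thrsp encodes a regulator of lipid synthesis, and its promoter sequence stands first above. It measured 37.2 and 38.9 CPM in PP and 46.3 and 41.8 CPM in PBP. After LPS it measured 16.1 CPM in PL 3_4 and little more in PL 1_2, 17.7, 23.0 and 21.5 CPM in PBL, 18.6 and 24.6 CPM in LL and 16.5 and 25.9 CPM in LBL. The groups did not overlap. The promoter of Kcnj16, a potassium channel gene, measured 20.7 to 27.7 CPM in PBS and 7.75 to 19.1 CPM in LPS libraries. BC147527 measured 14.0 to 24.8 CPM and 5.21 to 13.2 CPM, but it belongs to a family of near-identical copies between which reads may be shared, so its value is uncertain.

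Of 36 homeostatic microglial genes with a peak, 5 were the nearest gene, within 50 kb, of one of the 280 peaks (13.9%), against 237 of 11609 genes (2.04%). They were Siglech, Mertk, Olfml3, Entpd1 and Bin1. The list was drawn up with earlier results of these data known and the share carries no test. Not every peak of these genes moved: over all 167 peaks of the list, 6 were among the 280 (3.59% against 1.11% of all peaks), and the median difference was between -0.20 and 0.00 in the 4 comparisons. The other measured genes of the list had no peak in the set.

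Mertk encodes a receptor through which microglia take up dying cells. The promoter peak in the set measured 126 and 124 CPM in PP and 94.1 and 104 CPM in PBP, the highest levels among the 6 peaks from this list. After LPS it measured 65.3 and 47.0 CPM in PL, 68.9, 55.7 and 45.1 CPM in PBL, 78.7 and 75.1 CPM in LL and 66.6 and 80.1 CPM in LBL. No LPS library reached the PBS range, and both libraries of LL were above both of PL. Its level in LL exceeded that in PL by 0.47 (SE 0.151, edgeR adjusted p = 0.263) and in LBL that in PBL by 0.42 (SE 0.141, adjusted p = 0.0968), neither past the threshold. Mertk has another promoter peak, outside the set, which was called in none of the 4 LPS comparisons. It gave -0.39 in PL against PP, 0.03 in PBL against PBP, -0.27 in LL against PP and 0.51 in LBL against PBP, with edgeR adjusted p from 0.178 to 0.965.

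Entpd1 encodes CD39, the enzyme that breaks down extracellular ATP. Its intronic peak measured 21.0 and 25.2 CPM in PP, 18.4 and 24.3 CPM in PBP and 8.57 to 15.9 CPM over the LPS libraries. Its 3 promoter peaks gave no called change in any of the 4 comparisons, with edgeR adjusted p from 0.272 to 0.998. Bin1, which encodes a membrane-bending protein, has an intergenic peak at 25.8 to 45.8 CPM in PBS and 16.7 to 29.5 CPM in LPS libraries, and these overlap.

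Olfml3, a secreted protein gene used as a microglial marker, had 2 of the 280 peaks. The 3' UTR peak measured 37.2 and 47.0 CPM in PP, 49.0 and 51.6 CPM in PBP, and between 23.9 and 28.4 CPM in the 9 LPS libraries, a narrow range that stayed below every PBS library. The promoter peak, part of which is printed above, measured 16.7 to 20.9 CPM in PBS and 7.73 to 17.3 CPM in LPS libraries, where PBL 1_2 reached into the PBS range.

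**Figure D4:**
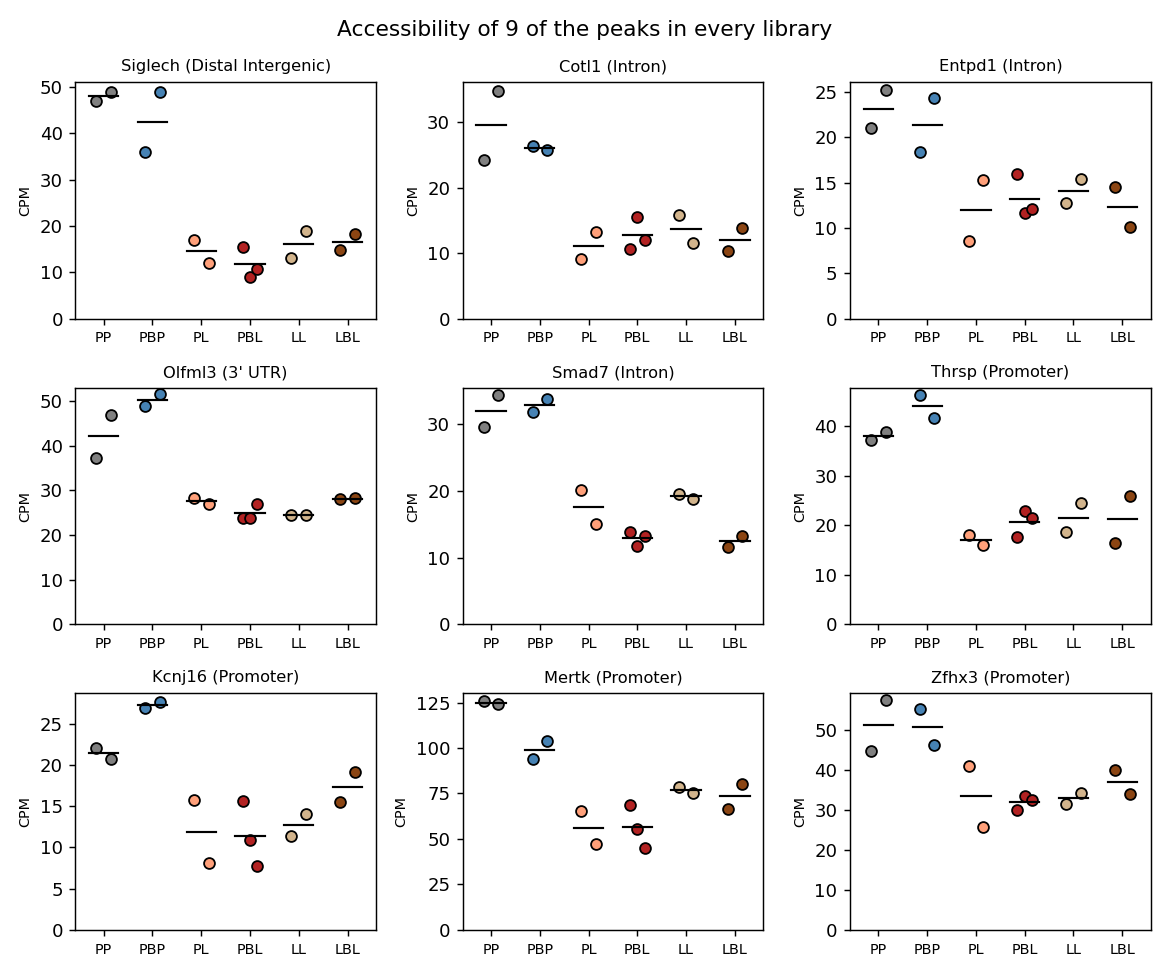
CPM of 9 of the peaks in every library, by group; points are libraries, lines are group means, each panel starts at 0 and gives the gene and the class of the peak. In all 9 panels the PP and PBP libraries lie above the LPS libraries, for Siglech at 36.0 to 49.0 against 9.09 to 19.0 CPM.

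Of 34 transcription factor genes of microglial identity, 1 had a peak in the set (2.94%, against 2.04% of all genes), Zfhx3, a large homeobox and zinc finger factor. Its promoter peak measured 44.7 and 57.6 CPM in PP, 55.3 and 46.3 CPM in PBP and 25.8 to 41.1 CPM in LPS libraries, without overlap. Of 20 TGF-beta receptor and SMAD genes, 1 had a peak in the set (5.0%, against the same 2.04%), Smad7, which encodes the inhibitory SMAD of the pathway. That intronic peak measured 29.6 and 34.3 CPM in PP and 31.8 and 33.8 CPM in PBP. After LPS it measured 20.1 and 15.0 CPM in PL, 13.8, 11.8 and 13.2 CPM in PBL, 19.6 and 18.8 CPM in LL and 11.6 and 13.3 CPM in LBL. Every library of the 2 BLZ945 groups was thus below every library of the 2 vehicle groups after LPS. That step was -0.42 (SE 0.254, edgeR adjusted p = 0.561) in PBL against PL and -0.63 (SE 0.273, adjusted p = 0.536) in LBL against LL, neither past the threshold. PBL and PL differed in sorter and day, and LBL and LL in day, which cannot be told apart from BLZ945. The share of all peaks with such a step was not counted.

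Of 27 inflammatory cytokine and NF-kB target genes, 0 had a peak in the set, and of 23 genes of disease-associated or primed microglia also 0. Over all genes the share was 2.04%, so counts of 0 or 1 in lists this short are not read as a difference from it. Of 22 negative regulators of LPS signalling, 1 did, Inpp5d, which encodes the phosphatase SHIP1. Its promoter peak measured 44.2 to 69.7 CPM in PBS and 34.6 to 47.9 CPM in LPS libraries and so overlapped. Of 19 interferon-stimulated genes, 1 did, Ifit3, whose peak at a distance of 13085 bp measured 15.6 to 22.8 CPM and 9.75 to 16.6 CPM, also overlapping. Of 26 lysosome and phagocytosis genes, Mertk was the 1 with a peak in the set. None of the 6 measured marker genes of border macrophages and blood leukocytes and of the 7 of neurons, other glia and endothelium had one.

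The peaks were mostly single. The 246 peaks with a start site within 50 kb were nearest to 237 genes, and 34 peaks were farther away. The 9 genes with 2 of the peaks were Cbfa2t3, Gm11747, Helz, Lyzl4, Mfng, Mir181a-2, Nav1, Olfml3 and Synj2. At Nav1, a gene for a protein of microtubule ends, the peak with the larger loss measured 17.7 to 21.8 CPM in PBS and 4.73 to 11.2 CPM in LPS libraries. At Cbfa2t3, a corepressor gene, an intronic peak measured 27.5 to 33.4 CPM and 8.08 to 21.8 CPM. Both separated the PBS from the LPS libraries. The 2 peaks nearest to Mir181a-2, an exonic and an intronic one with centres 1014 bp apart, measured 13.5 to 30.2 and 30.0 to 47.0 CPM in PBS libraries and 6.58 to 16.0 and 22.7 to 29.8 CPM in LPS libraries. Only the intronic one separated them. The let-7i peak, in intergenic DNA 5579 bp from the microRNA's start, measured 16.3 to 30.2 CPM and 5.45 to 16.4 CPM, and LL 3_4 alone reached the lowest PBS library.

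Peaks near the 280 were not used to choose them, although they stand in the same comparisons. Within 50 kb lay 1316 other tested peaks, of which 5.55% were called lower in PL against PP, where 2.69% of all tested peaks were. The shares were 7.45% in PBL against PBP (3.23% of all), 3.04% in LL against PP (2.0%) and 2.2% in LBL against PBP (0.88%). Their median log2 fold change was between -0.15 and -0.09, against -0.004 to 0.012 over all peaks. Most neighbours were therefore not called. These shares moved with single libraries: without PL 3_4 the first was 0.831% against 0.476% of all peaks, and without PL 1_2 it was 11.8% against 6.12%. In LL against PP the share was 0.681% against 0.503% without PP 1_2.

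The promoter peaks of genes whose peak in the set lay beyond the promoter were read the same way. Of 132 such promoters, 10 were called lower in PL against PP (7.58%, against 2.69% of all tested peaks), 5 in PBL against PBP (3.79% against 3.23%), 2 in LL against PP (1.52% against 2.0%) and 1 in LBL against PBP (0.758% against 0.88%). Apart from the first, these shares were near or below those of all peaks. The median log2 fold change of these promoters was -0.192, -0.0617, -0.145 and -0.127 in the same order. Over all peaks it was between -0.004 and 0.012.

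Eef2k, whose peak at the limit is itself a promoter peak, has a second promoter peak outside the set. It measured 79.8 and 89.9 CPM in PP, 90.7 and 111 CPM in PBP, 56.1 and 57.8 CPM in PL and 50.2, 54.1 and 50.1 CPM in PBL. In LL it measured 68.3 and 61.9 CPM and in LBL 74.0 and 64.7 CPM, so all LPS libraries were below all PBS libraries. It fell in PL against PP (-0.55, SE 0.17, edgeR adjusted p = 0.0272), in PBL against PBP (-0.94, SE 0.136, adjusted p = 3.28e-08) and in LBL against PBP (-0.54, SE 0.147, adjusted p = 0.0131). LL against PP gave -0.36 (SE 0.161, edgeR adjusted p = 0.181), which did not pass the threshold.

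Whether an LPS injection 5 weeks earlier changed these peaks at the second injection was tested between groups that had both received LPS. The rule did not use this difference, but it did use both group means and kept peaks that were low in both, which favours small differences between them. The same holds for every comparison between 2 LPS groups below, so few calls there do not show that the groups were alike. In LL against PL, edgeR called 0 of the 280 peaks, where 0.064% of all peaks were called. DESeq2 and limma also called 0. At an unadjusted p under 0.05 there were 21 by edgeR, 17 higher and 4 lower, which is 7.5% of the 280 against 7.82% of all peaks. The median log2 fold change was 0.08 with a median SE of 0.274. The 2 groups were sorted on different instruments and days, which cannot be told apart from the earlier LPS.

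In LBL against PBL, both sorted on the XDP but on different days, edgeR called 3 of the 280 (1.07%, against 1.9% of all peaks), 2 higher and 1 lower. Uba7, which encodes the enzyme that activates the interferon-induced protein ISG15, has a promoter peak that measured 59.3, 54.0, 59.0 and 53.2 CPM in the PP and PBP libraries. It measured 25.1 and 25.0 CPM in PL, 20.4, 25.7 and 26.1 CPM in PBL, 40.2 and 35.1 CPM in LL and 38.8 and 45.3 CPM in LBL. Its level rose in LBL against PBL by 0.77 (SE 0.184, edgeR adjusted p = 0.00813) and stayed below the PBS libraries. In LL against PL the value was 0.61 (SE 0.206, edgeR adjusted p = 0.299), with both LL libraries above both PL libraries.

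The second was an intergenic peak on chromosome 3 (chr3:103401066-103401823), 59384 bp from Trim33. It measured 26.3, 25.2 and 20.2 CPM in PBL and 42.3 and 39.3 CPM in LBL and rose by 0.78 (SE 0.193, edgeR adjusted p = 0.012). Its PP libraries were far apart, at 28.6 and 53.0 CPM, so LBL overlapped the PBS range. The third lay 5570 bp from Mir146, the gene of miR-146a. It measured 15.2, 24.5 and 28.7 CPM in PBL and 11.6 and 13.9 CPM in LBL and fell by 0.90 on the log2 scale (SE 0.248, edgeR adjusted p = 0.0297). There LL and PL were alike in level, at 10.9 and 16.2 CPM and 15.4 and 14.5 CPM, and the spread in PBL was wide.

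None of the 3 calls held throughout. DESeq2 called 0 of the 280 in this comparison, as did edgeR without LBL 1_2 and without LBL 3_4, and the fit without PBL 4_5 called 1. Without PL 1_2 or PL 3_4, which are not in the comparison but enter the shared estimate of spread, 8 were called. With the pool label as a block, 1 was called. The test of whether LBL against PBL differed from LL against PL called 0 peaks of the 280 and 0 of all 37516 by edgeR, by DESeq2 and by limma, with 12 of the 280 at an unadjusted p under 0.05 by edgeR (4.29% against 6.92% of all).

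**Figure D5:**
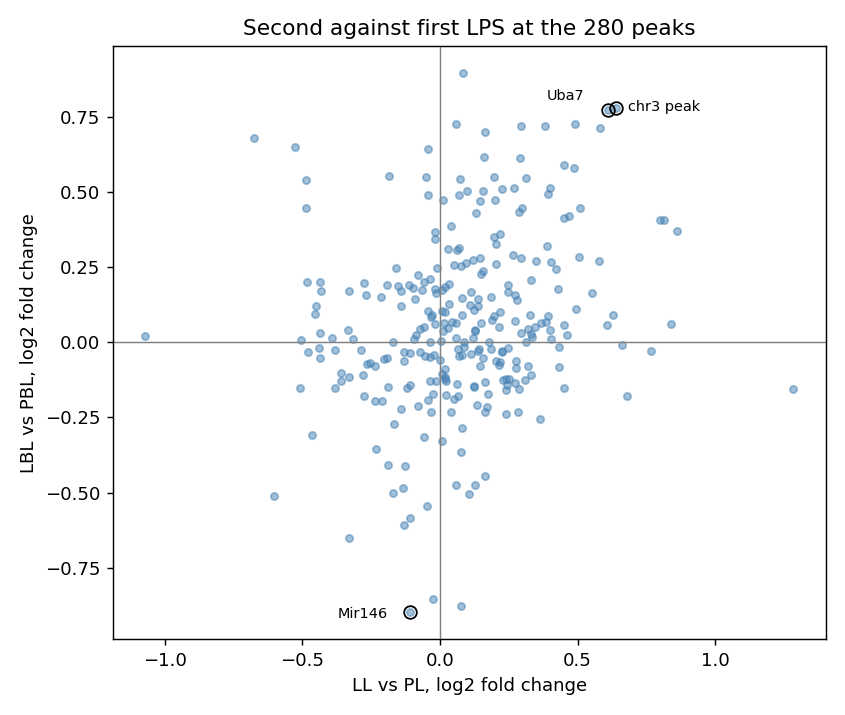
Log2 fold change of LL against PL (horizontal) and of LBL against PBL (vertical) for each of the 280 peaks, from the edgeR fit; the circled points are the 3 peaks called in LBL against PBL. The points lie on both sides of 0, with 178 above and 102 below 0 in LL against PL and 164 and 116 in LBL against PBL. In both comparisons 114 of the 280 peaks were above 0 and 52 below. Of all 25307 peaks, 7197 were above 0 in both and 6895 below.

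The 2 comparisons use separate libraries. Across the 280 peaks the 2 sets of fold changes had a Pearson r of 0.225 and a Spearman correlation of 0.246, and over all 25307 peaks these were 0.28 and 0.214. The points share libraries within each axis, so these values are a description. The likeness among the 280 was thus no larger by Pearson's r than among all peaks.

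Repopulated microglia were compared with those never depleted in 3 settings. After PBS, PBP and PP were both sorted on the Astrios, but on different dates, so date and BLZ945 cannot be told apart. In this comparison edgeR called 4 of the 280 lower and 0 higher (1.43%, where 0.096% of all peaks were called lower and 0.16% in either direction). The rule did not use the difference between PBP and PP, but it used both levels as controls. It kept peaks whose controls stood high, so this share is not independent of the choice of peaks. The promoter peak of 4931408C20Rik measured 159 and 142 CPM in PP, 67.7 and 79.7 CPM in PBP and 35.5 to 72.1 CPM after LPS. It fell by 1.01 on the log2 scale (SE 0.157, edgeR adjusted p = 7.21e-06). The intergenic peaks chr4:147342983 and chr4:147423193, whose nearest gene is Zfp982, fell by 1.22 (SE 0.245, adjusted p = 0.00311) and by 1.17 (SE 0.287, adjusted p = 0.0466) in edgeR. Near the start of chromosome 4, chr4:3082993 fell by 0.65 (SE 0.16, edgeR adjusted p = 0.0466), from 126 and 123 CPM to 70.2 and 86.2 CPM.

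At these 4 peaks PP was the highest group, which follows from the rule together with the calls lower in PBP. PBP was closer to the LPS groups than to PP, a description of peaks picked for a low PBP level. A likeness of PBP to the LPS groups was not tested. DESeq2 called only 4931408C20Rik among the 280, and without PP 1_2, PBP 1_2 or PBP 3_4 edgeR called 1. Without PP 3_4, LL 1_2, LL 3_4, LBL 1_2 or LBL 3_4 it called 2. Reads at all 4 peaks, 4931408C20Rik included, may be shared with near-identical copies elsewhere, so these levels are uncertain.

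After a single LPS injection, in PBL against PL, edgeR called 0 of the 280 (0.0826% of all peaks), with 26 at an unadjusted p under 0.05 (9.29% against 10.8% of all), 10 higher and 16 lower. After 2 LPS injections, in LBL against LL, it called 0 (0.0506% of all peaks), with 14 at an unadjusted p under 0.05 (5.0% against 8.06%). DESeq2 and limma called 0 in both. The response to a first LPS injection, PBL against PBP, was tested against PL against PP. The rule kept only peaks lower by 0.4 or more in both, which leaves out peaks that respond in 1 of them alone and favours a difference near 0. That difference was called at 0 of the 280 (0.0746% of all peaks) by edgeR, DESeq2 and limma, with 14 at an unadjusted p under 0.05 by edgeR (5.0% against 11.1%). Its median was 0.02 with a median SE of 0.382. Without PL 1_2 edgeR called 2 of the 280 in LL against PL, 3 in PBL against PL and 4 in the difference between responses, from 0 in each with all libraries.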

How the data were processed

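ATAC-seq counts per peak and library were taken from the deposited table, which holds expected or estimated counts, as multiples of 0.5, that the authors had not normalized. The peak annotation (nearest gene, class, distance to its start site in bp) comes with the same table, per the file headers. The tools listed in the submitters' processing notes are Bowtie2 2.2.6, ChIPseeker 1.38, HOMER 4.9.1, MACS2 2.1.1, Picard 1.126, SAMtools 1.7, bedtools 2.26, cutadapt 1.9.1 and deepTools 3.3.0, with the builds mm10 and GRCm38. The order, settings, counting tool and any transposase shift of read ends are not stated there. The 1 peak set is common to all libraries.

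Counts were rounded and fitted in edgeR 4.0.16 (R 4.3.3) by quasi-likelihood with TMM scaling and 6 group means over all 13 libraries. filterByExpr at a minimum count of 10 left 37516 of 38620 peaks, all 280 members included. Tests were two-sided F tests, adjusted by Benjamini-Hochberg over all tested peaks. Libraries were grouped by their titles, and p-values measure the spread between pools of 2 animals. The script was tested on simulated data. Depth per library was 927840 to 2772688 counts. The alternatives were DESeq2 1.42.0, limma 3.58.1 on log2 CPM, scaling by table total, no filter, the pool label as a block, leaving out each library, and other limits of the rule. CPM levels were computed with the table's totals.

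The peaks, gene lists and tests were chosen with earlier results of these data known. Peaks named in the text are the 12 with the most negative weakest difference, up to 4 per gene list, up to 5 promoter peaks, those called in the 7 tested comparisons, and 2 on each side of the limit. Names are those of the nearest start site within 50 kb. Kcnj16, Fam219b, Nav1, the intronic peak of Cbfa2t3 and the Mirlet7i and Mir181a-2 peaks, and the neighbouring promoter peaks of named genes, were added after their values were seen. No genome was used here, so motifs were counted only in RefSeq promoter windows. The result of 1 gene list is not reported here.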

Additional observations from a re-analysis of the deposited data

Results flagged for a closer look

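At 2 of the named peaks both LL libraries lay below both PL libraries, while both LBL libraries lay above all 3 PBL libraries. The share of all peaks with this pattern was not counted, so the 2 are not read as an excess. LL and PL were sorted on different instruments and days, and LBL and PBL on different days. These cannot be told apart from the earlier LPS. The peak near D7Ertd443e gave -0.53 in LL against PL and 0.65 in LBL against PBL, a difference of 1.18 on the log2 scale that did not pass the edgeR test (adjusted p = 0.653, unadjusted p = 0.018). The 3' UTR peak of Olfml3 gave -0.14 and 0.17, a difference of 0.31 (edgeR adjusted p = 0.891, unadjusted p = 0.292).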

How the results depend on the processing

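The number of peaks that meet the rule was 280. It was 643 with a limit of -0.3 and 131 with -0.5, 512 with a mean count of 10 or more and 93 with 40 or more. It ranged from 259 to 383 when 1 library was left out. Other scaling and another pseudocount kept it within 1.5 times.

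In LBL against PBL, 3 of the peaks were called by edgeR, 0 by DESeq2, and 0 to 8 without 1 library. In PBP against PP, 4 were called by edgeR, 1 by DESeq2, and 1 to 5 without 1 library. Counts of 0 became at most 2 in LL against PL, 3 in PBL against PL and 4 in the difference of first responses when 1 library was left out, and stayed 0 in LBL against LL and in the difference of the earlier LPS effect. Where a library was left out of a group of 2, the lone one was assumed to vary like the other groups. No peak changed direction under any of these alternatives among the 7 named in the tested comparisons. The cause of the lost calls was not tested.

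Pool labels (1_2, 3_4) recur in every group, but same-labelled libraries deviated little together, with correlations of deviations between -0.017 and 0.166. Such values cannot exclude a pairing, and the main fit used none. With that label as a replicate block 1 peak was called in LBL against PBL.

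Neighbours within 10 kb were called lower at 9.39% in PL against PP and 11.5% in PBL against PBP, against 5.55% and 7.45% within 50 kb. Without 1 library, an alternative chosen after seeing the data, the 50 kb shares ranged from 0.831% to 11.8% in PL against PP, 2.95% to 9.21% in PBL against PBP, 0.681% to 5.36% in LL against PP and 0.679% to 3.85% in LBL against PBP. In each of these fits the share was above that of all tested peaks. The motif count about peak centres and its 200 base alternative were not run. With 2 or 3 libraries a group, the median SE of the log2 fold changes of the 280 peaks was 0.26 to 0.277 in the tested pairwise comparisons. It was 0.381 to 0.382 in the differences between responses, and such spread limits what could be called.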
